A study of Danio rerio with 9 samples.

Results

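The Tgf-beta genes described here are the ligands *tgfb1a*, *tgfb1b*, *tgfb2* and *tgfb3*, the receptors *tgfbr1*, *tgfbr2* and *tgfbr3*, and *tgfbi*, which encodes a matrix protein named for its induction by Tgf-beta. They were chosen by symbol from a list of 10, not by their values but with earlier results of these data known. Of the 16575 genes in the count table, 9 rows carried such a symbol. Both *tgfbr2* paralogs were present, but the name table gives them one symbol, so they are named by identifier. Of the 2 identifiers listed as *tgfbr1*, ENSDARG00000042259 was measured and the other, ENSDARG00000017494, had no row in the count table.

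RNA-seq was performed on ventricles of zebrafish at 5 months of age. The study used this set as its baseline without injury. Controls were wild type for *vegfc* and *vegfd* (n = 5 libraries, replicates 1 to 5). Mutants were *vegfc*(hy-/-);*vegfd*(-/-), that is, every cell carried 2 copies of a *vegfc* allele with reduced function and 2 of a *vegfd* null allele (n = 4 libraries, replicates 6 to 9). The study used these fish to ask which pathways accompany the enlarged heart of mutants that lack cardiac lymphatic vessels. Whether a library came from one ventricle or from several is not given in the sources used here, so p-values measure the spread between libraries, which may in part be technical.

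Tgf-beta ligands are secreted as latent complexes bound to matrix, and must be released before they act. An active ligand brings together type II and type I receptor kinases, here the products of *tgfbr2* and *tgfbr1*, and the type I receptor phosphorylates Smad2 and Smad3. These enter the nucleus with Smad4 and change transcription. In the heart the pathway is known for its part in valve formation, in the behaviour of fibroblasts and in scar formation, and in zebrafish it is active in the injured ventricle.

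Totals were between 23302636 and 33407859 counts in controls and between 27320575 and 33496006 counts in mutants. Control 2 had the lowest total, and 684 genes had no count in it. Cardiomyocyte markers were abundant in every library, with a summed level of 110000 to 130000 CPM (counts relative to library size, with edgeR's TMM scaling; not corrected for gene length) in controls and 91200 to 102000 CPM in mutants. Every mutant sum thus lay below every control sum. The labels were checked on *vegfd*, which averaged 2.60 ± 1.25 CPM in the 5 controls (SD) against 0.368 ± 0.214 CPM in the 4 mutants (edgeR adjusted p-value 0.0195). This value was 0.0562 without mutant 6 and 0.0611 without mutant 7. A mutation need not lower the mRNA of *vegfc*, which averaged 2.99 ± 1.71 CPM in the 5 controls (SD) against 3.80 ± 1.86 CPM in the 4 mutants (edgeR adjusted p-value 0.719).

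None of the 9 Tgf-beta genes passed an adjusted p-value of 0.05 in edgeR's quasi-likelihood test, where 3.34% of all genes did (553 of 16575). At an unadjusted p-value under 0.05 there were 2 of 9, *tgfbr3* and *tgfbr2* ENSDARG00000034541, beside 20.9% of all genes. At the looser adjusted threshold of 0.1 there was still none in this test, beside 7.42% of all genes. The likelihood ratio test, DESeq2 and limma-voom also called none at 0.05, with 1, 3 and 3 genes at an unadjusted p-value under 0.05. Their smallest adjusted p-values were 0.143, 0.0638 and 0.0681, so at 0.1 DESeq2 and limma-voom would call *tgfbr3*. Every gene of the group overlapped between genotypes, whereas 10.5% of all genes did not. The fitted log2 fold changes ran from -0.42 to 0.54 with a median of 0.20, beside -0.01 over all genes, and 6 were above 0. For 8 of the 9 the 95% interval stayed inside a 2-fold change in either direction. These intervals are for single genes and are not adjusted over all genes. Those of *tgfbr3* (0.14 to 0.94) and *tgfbr2* ENSDARG00000034541 (0.05 to 0.71) left out 0, although neither gene was called. For the other genes a change inside the interval cannot be told from none. In bulk tissue, fewer cells of a type and less RNA per cell cannot be told apart.

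**Figure D1:**
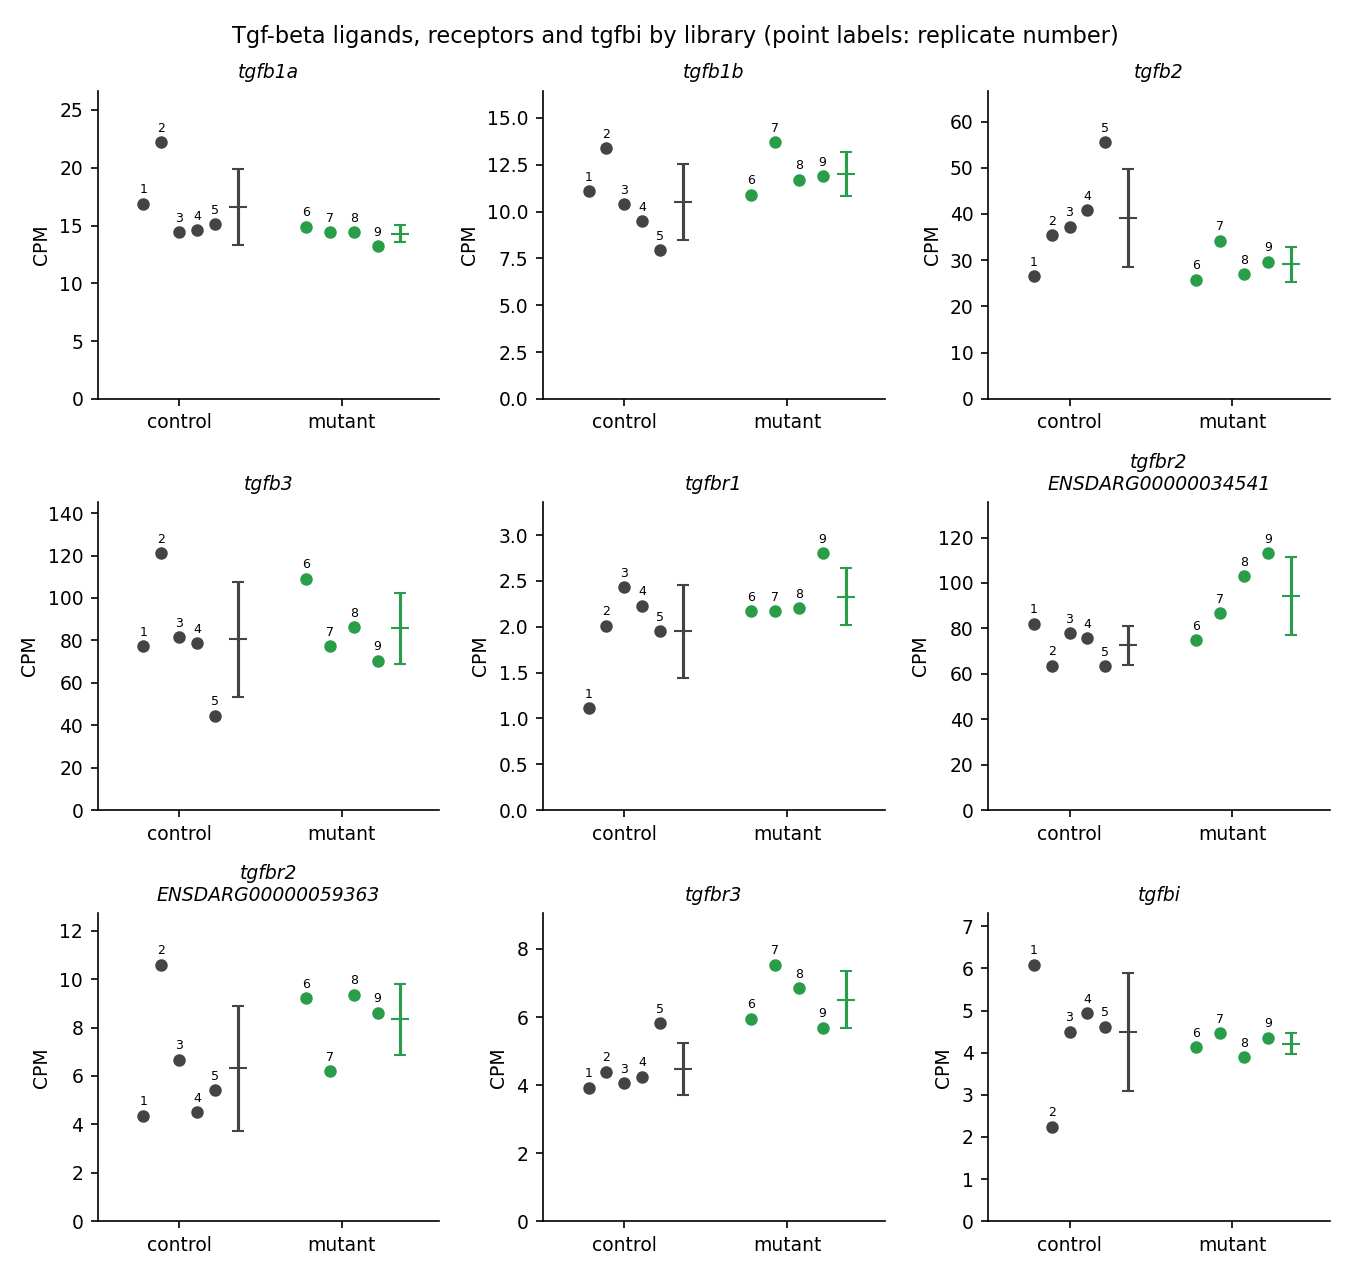
Level of each Tgf-beta gene in CPM (vertical axis, from 0) in the 5 control and 4 mutant libraries, with points for libraries labelled by replicate number and bars beside them for the mean and SD. Mutant and control points overlap in all 9 panels, and control 2 is the highest control for 4 genes and the lowest for *tgfbi*.

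Among the ligands, *tgfb1a* and *tgfb1b* are the zebrafish paralogs of mammalian TGFB1. *tgfb1a* (ENSDARG00000041502) was 16.9, 22.2, 14.4, 14.6 and 15.1 CPM in controls 1 to 5, and 14.9, 14.4, 14.4 and 13.2 CPM in mutants 6 to 9. Control 2 was the highest of all, and no mutant exceeded the control median of 15.1 CPM. On the log2 scale the fitted change was -0.22 ± 0.15 (SE), with a 95% interval of -0.56 to 0.12 and an edgeR adjusted p-value of 0.448.

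*tgfb1b* (ENSDARG00000034895) was 11.1, 13.4, 10.4, 9.50 and 7.94 CPM in controls, and 10.9, 13.7, 11.7 and 11.9 CPM in mutants. All 4 mutants lay above the control median, but controls 1 and 2 lay among them. The fit gave a log2 fold change of 0.20 ± 0.17 (SE), with a 95% interval of -0.17 to 0.57 and an edgeR adjusted p-value of 0.526.

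The 2 paralogs were then compared within each library, where scaling to depth plays no part. Of the counts of both genes, *tgfb1a* took 60.4%, 62.4%, 58.0%, 60.6% and 65.5% in controls 1 to 5, and 57.9%, 51.3%, 55.2% and 52.6% in mutants 6 to 9. The genotypes did not overlap, although mutant 6 and control 3 were nearly equal. The log2 ratio of *tgfb1a* to *tgfb1b* was 0.67 ± 0.17 (SD, n = 5) in controls and 0.25 ± 0.17 (SD, n = 4) in mutants, a difference of -0.42 ± 0.11 (SE). The exact permutation p-value was 0.0159 (two-sided, where the smallest possible for 5 and 4 libraries is 0.00794). The same ratio was taken for 384 pairs of genes with at least 50 mean counts whose symbols differ only in a final a or b. They include unlike genes, such as subunits of one complex, and so are not a background of paralogs. Of these pairs, 91 (23.7%) had an exact permutation p-value under 0.05, and 44 (11.5%) had one at or under that of *tgfb1a* and *tgfb1b*. Adjusted over the 384 symbol pairs the exact permutation p-value of *tgfb1a* and *tgfb1b* was 0.139, and no pair passed 0.05. Pairs at the smallest possible exact permutation p-value, 0.00794, had 0.109 after this adjustment. With 5 and 4 libraries no pair could pass through its own separation alone, so the adjustment cannot decide on a single pair.

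For the *tgfbr2* paralogs the genotypes overlapped. ENSDARG00000034541 held between 85.7% and 95% of the counts of both in controls and between 89.0% and 93.3% in mutants. The difference in log2 ratio was -0.10 ± 0.36 (SE), with an exact permutation p-value of 0.802 for 4 and 5 libraries. Controls were widely spread here, from control 2 at the bottom to control 1 at the top. Its sign turned when control 1, control 4 or mutant 6 was left out, with differences of 0.06, 0.02 and 0.06.

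**Figure D2:**
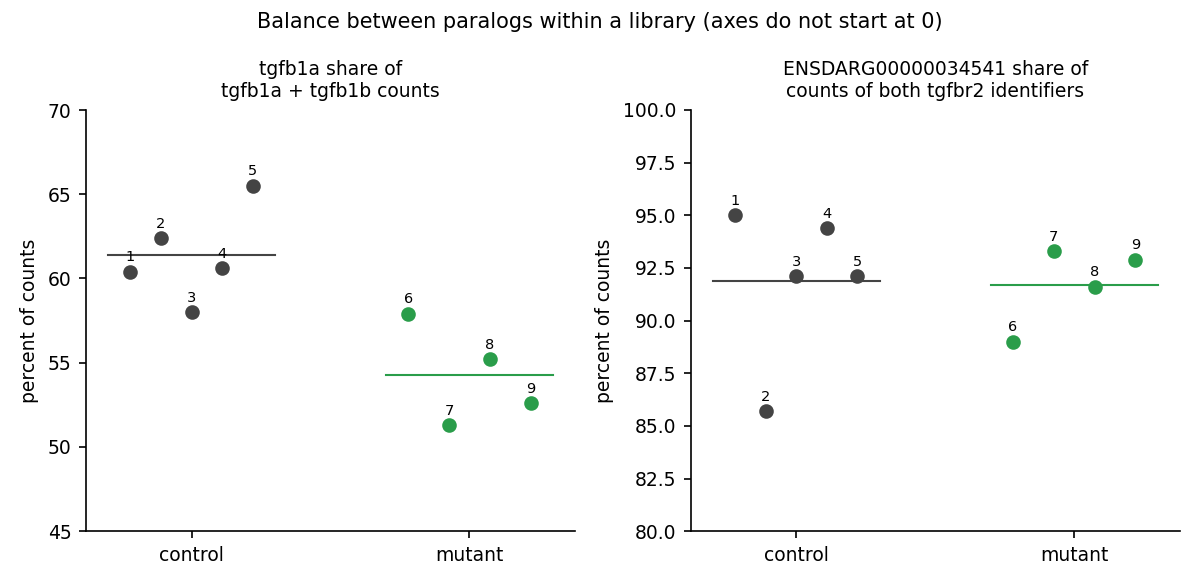
Share of counts, in percent, taken by *tgfb1a* among both *tgfb1* paralogs (left) and by ENSDARG00000034541 among both *tgfbr2* identifiers (right), with points for libraries labelled by replicate number, lines for means, and axes that do not start at 0. The *tgfb1a* share is 58.0% to 65.5% in controls and 51.3% to 57.9% in mutants, while the *tgfbr2* shares overlap.

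*tgfb2* (ENSDARG00000027087), a ligand needed for heart development in mice, was 26.5, 35.4, 37.2, 40.8 and 55.5 CPM in controls and 25.8, 34.2, 26.9 and 29.7 CPM in mutants. Controls 2 to 5 lay above every mutant, and control 1 lay at the level of the mutants. The log2 fold change of -0.42 ± 0.20 (SE) was the lowest of the group, with a 95% interval of -0.86 to 0.01 and an edgeR adjusted p-value of 0.255. It ranged from -0.53 without control 1 to -0.26 without control 5.

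*tgfb3* (ENSDARG00000019367) was 77.3, 121.0, 81.4, 78.6 and 44.5 CPM in controls and 109.0, 77.2, 86.2 and 70.5 CPM in mutants. Controls 2 and 5 marked the highest and lowest level of all 9 libraries, so that the mutants lay wholly within the control range. The log2 fold change was 0.09 ± 0.25 (SE), with a 95% interval of -0.46 to 0.64 and an edgeR adjusted p-value of 0.875. In control 5 *tgfb3* was lowest and *tgfb2* highest among controls.

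The type I receptor *tgfbr1* (ENSDARG00000042259) had 36 to 88 counts per library, the fewest of the group. It was 1.11, 2.01, 2.43, 2.23 and 1.95 CPM in controls and 2.17, 2.17, 2.20 and 2.80 CPM in mutants. Control 1 was low and mutant 9 high, and the other 7 libraries were close together. On the log2 scale the fitted change was 0.26 ± 0.27 (SE), with a 95% interval of -0.35 to 0.87 and an edgeR adjusted p-value of 0.639.

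The type II receptor binds the ligand first. *tgfbr2* ENSDARG00000034541 was 82.0, 63.6, 78.0, 75.6 and 63.4 CPM in controls and 74.7, 86.6, 103.0 and 113.0 CPM in mutants. Mutants 7, 8 and 9 lay above every control, and mutant 6 lay within the control range. The fit gave a log2 fold change of 0.38 ± 0.15 (SE), with a 95% interval of 0.05 to 0.71, an unadjusted p-value of 0.0282 and an edgeR adjusted p-value of 0.183.

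*tgfbr2* ENSDARG00000059363 was 4.36, 10.6, 6.68, 4.50 and 5.42 CPM in controls and 9.21, 6.19, 9.36 and 8.62 CPM in mutants. Control 2 was above every mutant, control 3 lay between mutant 7 and the other mutants, and controls 1, 4 and 5 were below all mutants. The log2 fold change was 0.41 ± 0.27 (SE), with a 95% interval of -0.20 to 1.01 and an edgeR adjusted p-value of 0.433. Without control 2 it was 0.67, with an edgeR adjusted p-value of 0.113.

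*tgfbr3* (ENSDARG00000099979) encodes betaglycan, a co-receptor that presents ligand, Tgf-beta2 in particular, to the type II receptor. It was 3.92, 4.39, 4.05, 4.25 and 5.81 CPM in controls and 5.95, 7.54, 6.84 and 5.69 CPM in mutants. The genotypes overlapped through a single library, control 5, which lay above mutant 9. The log2 fold change of 0.54 ± 0.18 (SE) was the highest of the group, a 1.45-fold higher level with a 95% interval of 1.1-fold to 1.91-fold. It was higher in 4 of 4 mutants than the control median, with an unadjusted p-value of 0.0131. After adjustment over all genes it did not pass (edgeR adjusted p-value 0.129), nor did it without control 5 (log2 fold change 0.65, edgeR adjusted p-value 0.0842).

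*tgfbi* (ENSDARG00000071586), the matrix gene, was 6.09, 2.24, 4.50, 4.94 and 4.62 CPM in controls and 4.13, 4.46, 3.89 and 4.36 CPM in mutants. All 4 mutants lay below the control median, yet above control 2. On the log2 scale the fitted change was -0.09 ± 0.26 (SE), with a 95% interval of -0.66 to 0.48 and an edgeR adjusted p-value of 0.879.

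**Figure D3:**
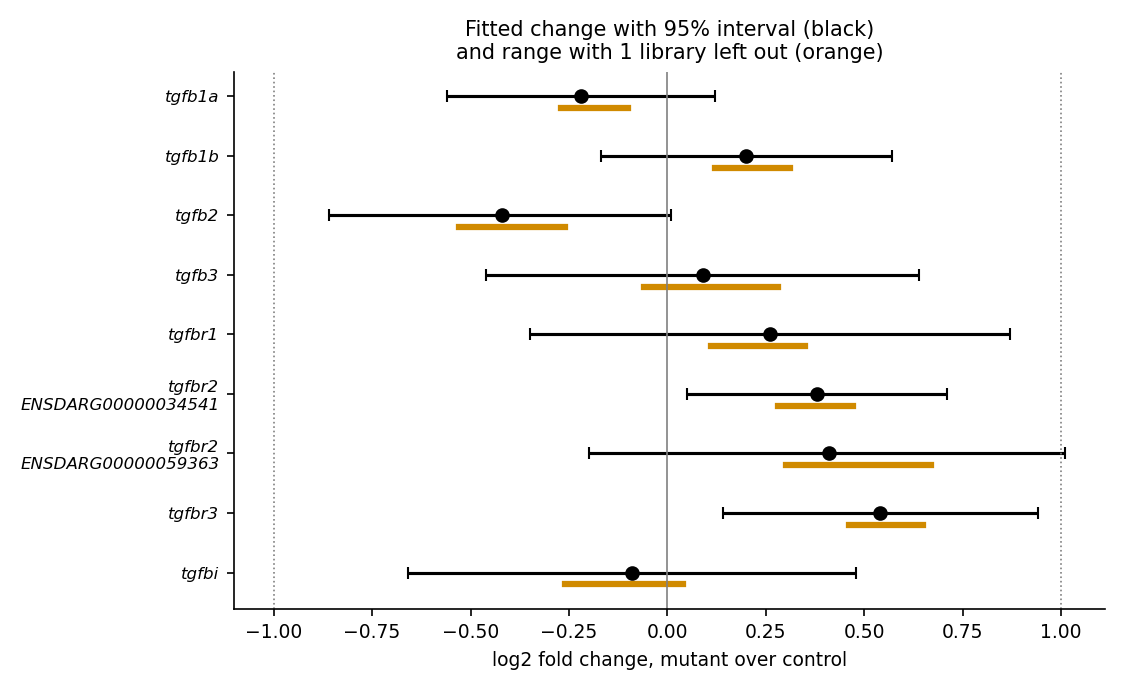
Fitted log2 fold change of each Tgf-beta gene, mutant over control (horizontal axis), with its 95% interval in black and the range over 9 fits that each left out a library in orange; dotted lines mark a 2-fold change. Only the upper end for *tgfbr2* ENSDARG00000059363, at 1.01, passes a dotted line, and the orange ranges of *tgfb3* and *tgfbi* cross 0.

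Levels varied more among controls than among mutants. The coefficient of variation was lower in mutants for 8 of the 9 genes, with *tgfbr2* ENSDARG00000034541 as the exception, and for 59.1% of all genes. It ran from 11.8% to 40.8% in controls and from 5.13% to 19.6% in mutants. Control 2 was the highest control for *tgfb1a*, *tgfb1b*, *tgfb3* and *tgfbr2* ENSDARG00000059363 and the lowest for *tgfbi*. Without control 2 the coefficient was still lower in mutants for 8 of the 9 genes, beside 50.2% of all genes. This comparison was chosen after the data were seen and was not tested.

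The genes whose levels most resembled those of *tgfbr3*, the gene of the group with the smallest p-value, were ranked by Pearson's r of log2(CPM + 1) over the 9 libraries among 8988 genes with a mean of at least 5 CPM. They were *timm8a* (r = 0.957), *znf1007* (0.944), si:ch211-286b5.5 (0.938), *dis3l2* (0.931) and ENSDARG00000108432 (0.923). The last averaged 1.03 CPM in controls and 10.2 CPM in mutants, so that it passed the filter only through the mutants, and its r within controls was 0.75. Their Spearman's rho was between 0.833 and 1. Without controls 1 and 3, the libraries farthest from the median of *tgfbr3*, r was between 0.898 and 0.981. The points share their libraries and depth, part of each r is the difference between genotypes, and the highest values of so many genes are high by selection.

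Genes around the Tgf-beta ligands and receptors were taken from lists of the pathway, 115 genes in all besides those above. The lists were likewise chosen with earlier results of these data known. Of these, 6 were higher and 1 lower in mutants by edgeR's quasi-likelihood test, 6.09% beside 3.34% of all genes, where 2.13% were higher and 1.21% lower. The median log2 fold change of the 115 genes was -0.12. The genotypes did not overlap for 12 of the 115, beside 10.5% of all genes. The 7 genes were the Smad *smad3a*, the Smad partner *skilb*, the inhibitors *bambi* and *bgn*, the protease *mmp14*, the ligand *bmp7* and the target gene *tagln*. For *smad3*, *bambi*, *mmp14* and *tagln* another identifier with the same symbol was measured and was not called. Each of the 7 missed the threshold when at least one library was left out, where the genes called of all 16575 also dropped from 553 to between 196 and 481.

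**Figure D4:**
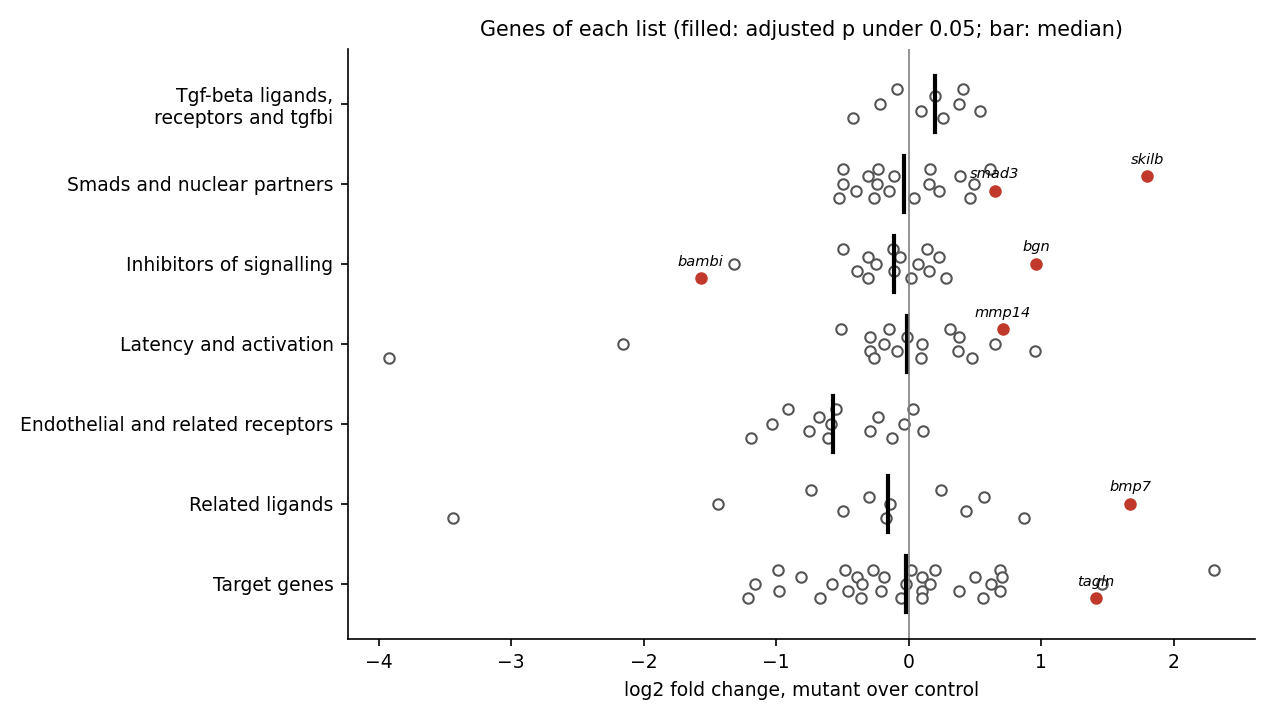
Log2 fold change, mutant over control (horizontal axis), of the genes in each list, 1 circle a gene, with the list's median as a bar and filled circles for an adjusted p-value under 0.05. The top row, the Tgf-beta ligands, receptors and *tgfbi*, holds no filled circle, and the median of the endothelial and related receptors lies at -0.57.

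Of 20 genes for Smads and nuclear partners, 2 were higher, 0 lower and 18 were not called, with a median log2 fold change of -0.04. *smad3a* (ENSDARG00000036096, listed as *smad3* and named *smad3a* in the study) encodes a Smad that Tgf-beta receptors phosphorylate. It was 9.98, 9.42, 10.6, 8.74 and 8.95 CPM in controls and 15.0, 16.3, 13.6 and 14.8 CPM in mutants. Every mutant lay above every control, and the spread within each genotype was small. The fit gave a log2 fold change of 0.65 ± 0.12 (SE), with an edgeR adjusted p-value of 0.0250. It was between 0.05 and 0.0723 without control 4, control 5, mutant 6, mutant 7 or mutant 9. Its paralog ENSDARG00000010207, named after its values were seen, averaged 25.1 ± 7.37 CPM in the 5 controls (SD) against 27.9 ± 4.90 CPM in the 4 mutants (edgeR adjusted p-value 0.749). *smad2*, also chosen afterwards, averaged 11.5 ± 1.28 CPM in the 5 controls (SD) against 10.6 ± 0.415 CPM in the 4 mutants (edgeR adjusted p-value 0.689).

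*skilb* belongs to the Ski and SnoN family, which binds Smads and represses their targets. It was 10.5, 6.36, 5.88, 4.69 and 2.55 CPM in controls and 33.8, 22.5, 11.4 and 15.9 CPM in mutants. The genotypes did not overlap, but mutant 8 came close to control 1. Mutants differed on the log2 scale by 1.80 ± 0.40 (SE), with an edgeR adjusted p-value of 0.0394. It passed with control 1 or mutant 8 left out and was between 0.0559 and 0.105 with any other library left out.

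Of 17 inhibitors of signalling, 1 was higher, 1 lower and 15 were not called, with a median log2 fold change of -0.11. The share called was 11.8%, beside 3.34% of all genes. *bambi* ENSDARG00000099677, which encodes a receptor-like protein without a kinase that blocks Tgf-beta and Bmp receptors, was 3.77, 5.44, 6.31, 9.78 and 8.83 CPM in controls and 2.38, 2.07, 2.85 and 1.88 CPM in mutants. Every mutant lay below every control. It fell by 1.57 ± 0.30 (SE) on the log2 scale, with an edgeR adjusted p-value of 0.0232. This was 0.0602 without mutant 6, 0.0695 without mutant 7 and 0.0654 without mutant 9. The other *bambi* identifier, ENSDARG00000055381, named after its values were seen, averaged 22.7 ± 14.4 CPM in the 5 controls (SD) against 23.9 ± 4.85 CPM in the 4 mutants (edgeR adjusted p-value 0.945).

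*bgn* (ENSDARG00000002945) encodes biglycan, a matrix proteoglycan that can bind Tgf-beta. It was 7.97, 7.0, 6.85, 7.80 and 4.74 CPM in controls and 10.8, 16.1, 15.5 and 11 CPM in mutants. All 4 mutants lay above the controls. On the log2 scale the fitted change was 0.96 ± 0.20 (SE), with an edgeR adjusted p-value of 0.0339. It was between 0.0522 and 0.0924 when control 2, control 3, control 4, mutant 7, mutant 8 or mutant 9 was left out.

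Of 19 genes for latency and activation of the ligands, 1 was higher, 0 lower and 18 were not called, with a median log2 fold change of -0.01. This single gene is 5.26% of the list, beside 3.34% called of all genes. *mmp14* ENSDARG00000008388 encodes a membrane-bound matrix metalloproteinase that can release Tgf-beta from its latent complex. It was 15.6, 15.0, 13.3, 11.4 and 14.9 CPM in controls and 30.3, 20.7, 19.3 and 21.7 CPM in mutants. Mutant 6 was well above the other mutants, and all mutants were above the controls. The fit gave a log2 fold change of 0.71 ± 0.16 (SE), with an edgeR adjusted p-value of 0.0461. It missed the threshold with any library left out, at 0.0575 to 0.104, and with scaling by library size alone, at 0.0587. The other *mmp14* identifier, ENSDARG00000002235, named after its values were seen, averaged 9.99 ± 1.77 CPM in the 5 controls (SD) against 10.7 ± 0.329 CPM in the 4 mutants (edgeR adjusted p-value 0.778).

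Of 12 related ligands, 1 was higher, 0 lower and 11 were not called, with a median log2 fold change of -0.16. This single gene is 8.33% of the list, beside 3.34% called of all genes. *bmp7* (ENSDARG00000063230), a Bmp ligand listed apart from *bmp7a*, was 0.587, 0.229, 0.594, 0.975 and 0.652 CPM in controls and 2.10, 1.95, 2.16 and 1.59 CPM in mutants. These are 5 to 31 counts against 50 to 62, with no overlap. Mutants differed on the log2 scale by 1.67 ± 0.39 (SE), with an edgeR adjusted p-value of 0.0468. It was between 0.0748 and 0.109 when control 1, control 3, control 5 or any mutant was left out, and 0.0546 with scaling by library size alone. Of the 12 ligands, 5 were fitted higher and 7 lower. Chosen after their values were seen, *mstnb* and *inhbb* had log2 fold changes of -3.44 and -1.44 (edgeR adjusted p-values 0.0722 and 0.0959). Controls of *mstnb* were widely spread, from 1.14 to 16.1 CPM, and lay above every mutant.

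Of 33 target genes, 1 was higher, 0 lower and 32 were not called, with a median log2 fold change of -0.02. The share called, 3.03%, was close to the 3.34% of all genes. *tagln* ENSDARG00000045408, which encodes a smooth muscle actin-binding protein, was 14.4, 16.0, 11.1, 15.6 and 6.49 CPM in controls and 53.7, 34.1, 26.1 and 21.1 CPM in mutants. Every mutant lay above every control, mutant 6 by the most. On the log2 scale the fitted change was 1.41 ± 0.32 (SE), with an edgeR adjusted p-value of 0.0407. It missed the threshold with any library left out, at 0.0505 to 0.102. The other *tagln* identifier, ENSDARG00000033466, named after its values were seen, was more abundant and overlapped between genotypes. It averaged 82.5 ± 18.2 CPM in the 5 controls (SD) against 107 ± 13.1 CPM in the 4 mutants (edgeR adjusted p-value 0.246). At an unadjusted p-value under 0.05 there were 7 of 33, beside 20.9% of all genes. Further targets are given here after their values were seen. *ccn1*, which encodes a secreted matrix-associated protein, averaged 53.9 ± 37.5 CPM in the 5 controls (SD) against 265 ± 221 CPM in the 4 mutants, a log2 fold change of 2.30 that did not pass (edgeR adjusted p-value 0.117). Its genotypes did not overlap, and mutant 6 was far above the other mutants at 593 CPM. The log2 fold change of *loxl2a*, a collagen cross-linking enzyme, was 1.46 (edgeR adjusted p-value 0.184), and that of *acta2*, smooth muscle actin, was -1.16 (edgeR adjusted p-value 0.230). *col1a2*, a collagen gene, averaged 120.0 ± 47.2 CPM in the 5 controls (SD) against 129.0 ± 27.9 CPM in the 4 mutants (edgeR adjusted p-value 0.867).

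The 14 endothelial and related receptors, which bind Bmp, activin and Bmp9-type ligands, held no call, where 3.34% of all genes were called. Listed *eng* had no match in the name table, and apart from *acvrl1* the 14 carry symbols of activin and Bmp receptors (*acvr* and *bmpr*). The median log2 fold change of the 14 was -0.57, beside -0.01 over all genes, and 12 were below 0, where 51.3% of all genes were. At an unadjusted p-value under 0.05 there were 4 of 14, beside 20.9% of all genes. The smallest p-value belonged to *acvrl1*, a type I receptor of endothelial cells, which was 20.6, 22.8, 24.1, 19.1 and 31.0 CPM in controls and 19.8, 10.8, 15.2 and 16.4 CPM in mutants. Only mutant 6 reached the control range. The fit gave a log2 fold change of -0.59 ± 0.20 (SE), at an edgeR adjusted p-value of 0.129. The median of the list depends on low genes and on control 2, and it was also smaller with limma-voom, which was run with sample quality weights. DESeq2 and the likelihood ratio test gave -0.58 and -0.57. The median was -0.26 over the 10 genes that averaged 50 counts or more, and -0.29 over the 11 genes with at least 1 CPM in at least 4 libraries. It was -0.35 with limma-voom and -0.36 without control 2.

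**Figure D5:**
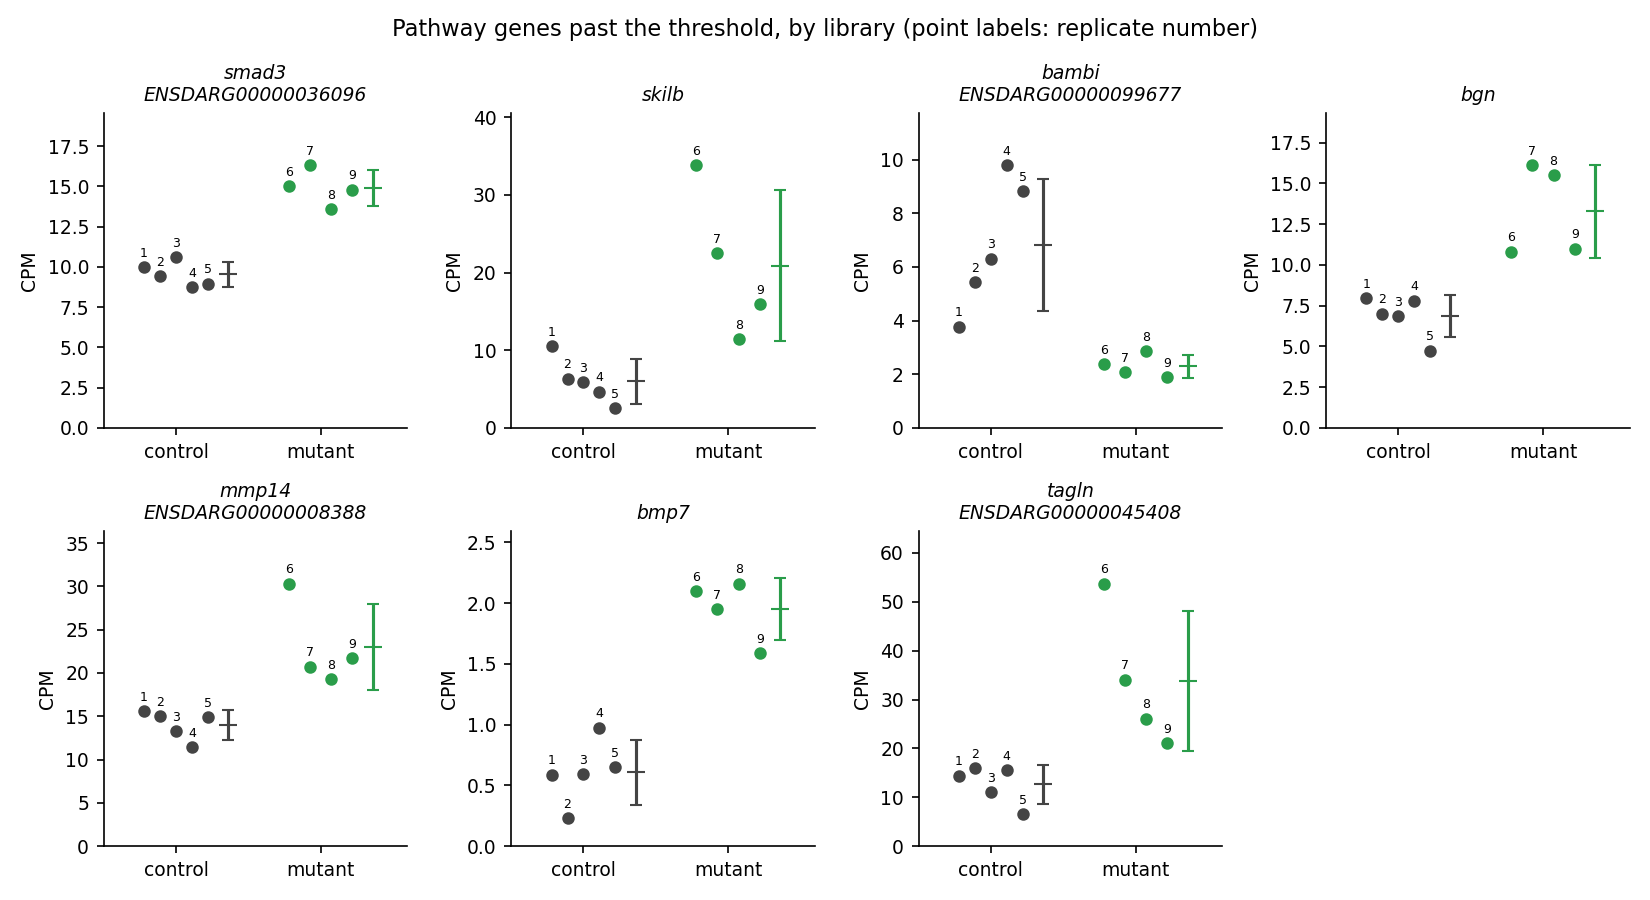
Level in CPM (vertical axis, from 0) of the 7 pathway genes with an adjusted p-value under 0.05, in the 5 control and 4 mutant libraries, with points for libraries labelled by replicate number and bars beside them for the mean and SD. The genotypes do not overlap in any panel, which the choice of genes by p-value favours, and mutant 6 is the highest library for *skilb*, *mmp14* and *tagln*.

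Markers of cell types were followed beside these genes. Over all genes 3.34% were called. None of 8 cardiomyocyte genes was called, but their sum was lower in every mutant (91200 to 102000 CPM) than in every control (110000 to 130000 CPM). Of the 8, 7 were fitted lower in mutants, where 51.3% of all genes were. At an unadjusted edgeR p-value under 0.05 there were 5 of 8, beside 20.9% of all genes. The genotypes did not overlap for 4 of the 8, beside 10.5% of all genes. Both counts include *tnnt2* ENSDARG00000100694, which was fitted higher. The smallest edgeR adjusted p-value of the list was 0.0711 (*cmlc1*, fitted lower). None of 5 genes listed for atrium was called, with sums of 917 to 2410 CPM in controls and 1390 to 2330 CPM in mutants. The atrium sum is carried by *nppa*, at 593 to 2090 CPM in controls and 857 to 1480 CPM in mutants. The genotypes did not overlap for 2 of the 5, beside 10.5% of all genes. These were *myh6* ENSDARG00000079564, higher (edgeR adjusted p-value 0.0811), and *nr2f2*, lower (edgeR adjusted p-value 0.0567). The genes were matched by symbol, and whether each marks atrium was not tested. In control 2 *myh6* ENSDARG00000079564 was at 306 CPM, while *myh6* ENSDARG00000090637 was at 2.24 CPM and *nr2f1* at 0.274 CPM. *myh6* ENSDARG00000090637 was 515 CPM in mutant 6, 15.8 to 75.3 CPM in the other mutants and 2.24 to 268 CPM in controls. Of 12 genes for fibroblasts and epicardium, 1 (*tbx18*) was lower in mutants, with a summed level of 396 to 739 CPM in controls and 399 to 574 CPM in mutants. The sum is carried by *col1a1a*, *col1a2* and *dcn*, so 3 markers at low levels are given by themselves. *tbx18* averaged 11.6 ± 4.16 CPM in the 5 controls (SD) against 3.89 ± 1.76 CPM in the 4 mutants (edgeR adjusted p-value 0.0494). *tcf21*, chosen after its values were seen, averaged 10.4 ± 5.42 CPM against 3.59 ± 2.09 CPM (log2 fold change -1.55, edgeR adjusted p-value 0.1), and *wt1b*, chosen likewise, averaged 0.788 ± 0.437 CPM against 2.27 ± 1.77 CPM (log2 fold change 1.52, edgeR adjusted p-value 0.174). Of 7 genes for bulbus smooth muscle, which include 2 listed as *tagln*, 1 was higher (*tagln* ENSDARG00000045408) and 1 lower (*myh11* ENSDARG00000009782), at 156 to 352 CPM and 158 to 300.0 CPM. Of the 7, 4 were fitted lower (*elnb*, *acta2* and the 2 listed as *myh11*) and 3 higher. Their median log2 fold change was -1.02, beside -0.01 over all genes. At an unadjusted edgeR p-value under 0.05 there were 5 of 7, beside 20.9% of all genes. The sum is carried by *acta2*, fitted lower, and *tagln* ENSDARG00000033466, fitted higher. None of 10 genes for endothelium and endocardium was called (788 to 1140 CPM in controls and 975 to 1320 CPM in mutants). Fits were higher in mutants for 8 of the 10 and lower for 2, with a median log2 fold change of 0.17. An unadjusted edgeR p-value under 0.05 was found for 3 of the 10, beside 20.9% of all genes. These were *egfl7*, *nfatc1* and *klf2a*, all fitted higher. Only *nfatc1* did not overlap between genotypes (edgeR adjusted p-value 0.124). Likewise not called were any of 16 leukocyte genes (271 to 1280 CPM and 352 to 1070 CPM) or of 7 thrombocyte genes. The summed thrombocyte genes were at 46.4 to 107 CPM in controls and 60.2 to 191 CPM in mutants, with the highest sum in mutant 6. That sum came mostly from 2 genes listed as *thbs1*, which are also among the genes for latency and activation and were highest in mutant 6 at 89.2 and 75.9 CPM. The other thrombocyte markers were highest elsewhere, *itga2b* and *mpl* in control 1 and *gp1bb* in control 5. Of the 2 listed as *fermt3*, ENSDARG00000030938 was highest in control 3 (5.57 CPM) and ENSDARG00000079267 in mutant 9 (6.42 CPM). Of the leukocyte genes, *lyz* and 2 listed as *mfap4* had no count in at least 1 library. The same held for the cardiomyocyte gene *tnnt2* ENSDARG00000100694, and for no other gene of the lists in this paragraph. The part of these cells in the results was not tested. In the RefSeq annotation of the GRCz12tu assembly none of the 10 Tgf-beta symbols lies on the chromosome of *vegfc* or of *vegfd*.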

How the data were processed

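Per the labels and the study's methods, the authors trimmed reads with Skewer, aligned them to GRCz11 with STAR 2.5.2a and made strand-specific counts for Ensembl genes with featureCounts 1.5.0 at a mapping quality of at least 20. The deposited values are raw counts per gene, kept at a mean of at least 10 counts per library. Of 16575 identifiers, 15812 had a symbol. The members, lists and tests were chosen with earlier results of these data known. A listed symbol absent from the name table was matched without its final a or b.

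Genotypes were compared with edgeR 4.0.16 (R 4.3.3; TMM scaling, quasi-likelihood F test in its legacy form, two-sided, Benjamini-Hochberg over all genes), without covariates. SE was the log2 fold change over the square root of F. The procedure was run on simulated counts with changes of 2-fold or more. It was not tried on the smaller changes fitted for the Tgf-beta genes. Paralog ratios used counts plus 0.5 and an exact permutation test, and the 384 symbol pairs were added after the data were seen. A planned *tgfbr1* ratio had only 1 gene. Named genes were every member, *vegfc*, *vegfd* and, in each list, those called or with the smallest p-value. Alternatives were the likelihood ratio test, DESeq2 1.42.0, limma-voom (3.58.1, with sample quality weights), a robust fit, and RLE scaling or library size alone. Further alternatives were filters of 50 mean counts or 1 CPM in 4 libraries, an adjusted threshold of 0.1 and omission of each library in turn. Near-identical copies lose reads at this mapping quality. Positions are not given.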

Additional observations from a re-analysis of the deposited data

Results flagged for a closer look

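Among 42 groups of 4 or 5 libraries, each searched for a library that stood apart, 2 held one, where chance gives about 2.1. *tgfbr3* was 5.81 CPM in control 5, apart from the other controls at 3.92 to 4.39 CPM. *tgfbr1* was 2.80 CPM in mutant 9, apart from the other mutants at 2.17 to 2.20 CPM.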

How the results depend on the processing

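None of the 9 Tgf-beta genes was called under any of 18 alternatives, an edgeR threshold of 0.1 included. That threshold was tried with the main fit alone. The smallest edgeR, DESeq2 or limma adjusted p-value of any member under the alternatives was 0.0638 (*tgfbr3*, DESeq2). At 0.1 *tgfbr3* would pass with DESeq2, with limma-voom (adjusted p-value 0.0681) or without control 5 (edgeR adjusted p-value 0.0842). With a library left out, the log2 fold change of *tgfb3* ranged from -0.06 (without control 5; -0.05 without mutant 6) to 0.28, and that of *tgfbi* from -0.26 to 0.04 (without control 1), so that the sign turned. The other 7 kept their direction. The *tgfb1a* to *tgfb1b* difference stayed between -0.49 and -0.36, with exact permutation p-values of 0.0179 to 0.0286. Its genotypes did not overlap over all 9 libraries and so could not overlap over fewer. These p-values therefore add nothing on how stable the difference is. The *tgfbr2* difference ranged from -0.35 to 0.06. Of the 115 pathway genes, 0 to 3 were higher and 0 to 1 lower with a library left out, and 0 were higher without mutant 7 or mutant 9, while calls over all genes fell from 553 to between 196 and 481 (196 and 201 without these). The likelihood ratio test called 3 lower, DESeq2 4 and limma-voom 2, and over all genes in either direction they called 1357, 1666 and 656. The log2 fold change of *vegfd* lay between -3.23 and -2.49 in such fits. It missed the threshold without mutant 6 (-2.80) or mutant 7 (-2.79). No cause was tested. No paired analysis was possible because the genotypes share no replicate number. Depth limits *tgfbr1*, *vegfd* and *bmp7*, which rest on few counts, and *bmp7* has no value under the filter of 50 mean counts.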

Other observations

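The 3 further genes of related name, chosen after their values were seen, were not called either. *tgfb5* (ENSDARG00000071879), a further ligand of the family in fish, averaged 6.36 ± 2.67 CPM in the 5 controls (SD) against 5.95 ± 1.28 CPM in the 4 mutants (edgeR adjusted p-value 0.897). *tgfbr2l* (ENSDARG00000055136), a gene named for its likeness to *tgfbr2*, averaged 2.14 ± 0.142 CPM in the 5 controls (SD) against 2.09 ± 0.383 CPM in the 4 mutants (edgeR adjusted p-value 0.952). *tgfbrap1*, whose product binds Tgf-beta receptors in mammals, averaged 1.32 ± 0.229 CPM in the 5 controls (SD) against 1.26 ± 0.341 CPM in the 4 mutants (edgeR adjusted p-value 0.927). Their 95% intervals ran from -0.79 to 0.60, from -0.53 to 0.47 and from -0.76 to 0.62 on the log2 scale.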
